A study of Mus musculus and Homo sapiens with 12 samples.

Results

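Tissue factor (F3), its inhibitors TFPI and TFPI2, thrombomodulin (THBD) and the endothelial protein C receptor (PROCR) were followed in 2 breast cancer cell lines with and without deletion of PFKFB4. The 5 genes were taken by symbol from the mouse table, which lists 54331 identifiers, and by Ensembl identifier from the human table, which lists 60233. The set was chosen by function and selected on knockout against wild-type TPM values of both lines that were already known. Their levels and fold changes are therefore given as a description, with no test and no p-value.

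Poly(A) RNA was sequenced from the mouse mammary tumour line EMT6 and from MDA-MB-231 cells, which derive from a human triple-negative breast adenocarcinoma. The study asked what deleting PFKFB4 does to the transcriptome. This enzyme makes and breaks down fructose 2,6-bisphosphate, an activator of glycolysis. There were 4 groups of 3 libraries, which are PFKFB4-KO EMT6, WT EMT6, PFKFB4-KO MDA-MB-231 and WT MDA-MB-231, 12 libraries in all. All were grown in high-glucose medium with serum, and no other agent or allele is named. The labels call the libraries biological replicates but do not say whether a knockout is 1 clone, how it was made, or whether libraries came from separate cultures. P-values therefore measure only the spread between these libraries.

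Tissue factor is a membrane receptor for clotting factor VII, and the complex with factor VIIa activates factors IX and X and so starts coagulation. TFPI is a secreted and membrane-bound inhibitor built of Kunitz domains that blocks factor Xa and the tissue factor complex. TFPI2 is a related Kunitz inhibitor that sits mainly in the extracellular matrix and acts on plasmin and other serine proteases. Thrombomodulin binds thrombin and turns it from a clotting enzyme into an activator of protein C. PROCR presents protein C to that complex, and in the mouse mammary gland it also marks a stem cell population. Tissue factor is made by many carcinoma cells, whereas TFPI and thrombomodulin are classically endothelial proteins.

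The 250 bases upstream of the annotated start of mouse F3, and the sequence upstream of the more distal of 2 annotated starts of mouse Tfpi, are shown because these genes had the largest fold changes of the family in EMT6. Both come from RefSeq, run 5′ to 3′ on the gene's own strand, and carry the matches to searched motifs in capitals.

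F3, chr3:121723287-121723536, plus strand, GRCm38.p6: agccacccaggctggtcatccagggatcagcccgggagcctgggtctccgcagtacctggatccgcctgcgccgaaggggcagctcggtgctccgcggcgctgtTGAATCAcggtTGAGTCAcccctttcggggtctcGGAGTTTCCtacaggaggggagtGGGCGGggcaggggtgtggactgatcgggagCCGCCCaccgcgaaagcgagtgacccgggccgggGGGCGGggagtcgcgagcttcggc

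Tfpi, chr2:84476776-84477009, minus strand, GRCm38.p6: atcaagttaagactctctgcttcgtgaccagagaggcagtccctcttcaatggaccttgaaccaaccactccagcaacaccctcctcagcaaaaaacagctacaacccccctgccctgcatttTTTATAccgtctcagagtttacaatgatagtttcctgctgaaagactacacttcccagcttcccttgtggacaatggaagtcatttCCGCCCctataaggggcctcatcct

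The letters searched, on both strands, were AP-1 (TGANTCA), the GC box bound by Sp1 (GGGCGG), a long Egr1 site (GCGNGGGCG), a kB-like site (GGAGTTTCC), an interferon-stimulated response core, the TATA box (TATAAA) and the hypoxia response core (ACGTG). The F3 window, 70.0% G and C, held 2 AP-1 matches that begin 146 and 135 bases before the start, 1 kB-like match at 112 bases and 3 GC boxes at 89, 58 and 24 bases. Of 32851 mouse promoters searched over the same length, 6.75% held an AP-1 match, 0.262% the kB-like match and 32.7% a GC box. The kB-like letters were 1 fixed sequence with no free position, so their low share is not that of kB sites in general. The Tfpi window, 48.7% G and C and 234 bases long once bases of its own exon were left out, held 1 GC box at 41 bases and 1 TATA box on the reverse strand at 127 bases. These distances are counted from the RefSeq start, which lies beyond the 16 bases of exon left out at the end of the printed sequence. A TATA box was present in 12.4% of all promoters. The other annotated Tfpi start, whose window lost 11 exon bases in the same way, had 1 GC box at 159 bases from its RefSeq start. No matches overlapped, and neither gene's windows held the Egr1, interferon or hypoxia letters, which stood in 4.7%, 2.98% and 16.6% of promoters. A match is a description of the letters, not a bound site.

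F3 differed in opposite directions between the knockouts of the 2 lines. In EMT6, F3 (ENSMUSG00000028128, chromosome 3, 121723537 to 121735048, plus strand, GRCm38) stood at 2.22, 2.19 and 1.85 TPM in the PFKFB4-KO libraries, against 4.97, 4.94 and 4.58 TPM in the WT libraries. TPM is the transcript abundance per length, scaled so that each library sums to 1000000. Every EMT6 knockout library was below every wild-type library. The means were 2.09 ± 0.205 TPM in PFKFB4-KO and 4.83 ± 0.213 TPM in WT (SD, n = 3 each), a log2 fold change of -0.92 ± 0.08 (SE) on the log2(TPM + 1) scale, which understates changes of low genes.

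In MDA-MB-231, F3 (ENSG00000117525) stood at 193, 268 and 259 TPM in the PFKFB4-KO libraries, against 68.3, 81.0 and 65.6 TPM in the WT libraries. Here every knockout library was above every wild-type library, and PFKFB4-KO replicate 1 was the lowest of the knockouts. The means were 240.0 ± 40.8 TPM in PFKFB4-KO and 71.6 ± 8.24 TPM in WT (SD, n = 3 each), a log2 fold change of 1.72 ± 0.15 (SE), or 1.87 without PFKFB4-KO replicate 1. The level in MDA-MB-231 exceeded that of 96.3% of tested genes in PFKFB4-KO and 88.3% in WT, whereas in EMT6 it exceeded 22.0% in PFKFB4-KO and 32.3% in WT. The tables of the 2 lines were normalized separately and hold different annotations, so levels were compared between lines only as positions within a table. Both samples are bulk cultures, in which fewer cells carrying a transcript and less transcript per cell cannot be told apart.

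**Figure D1:**
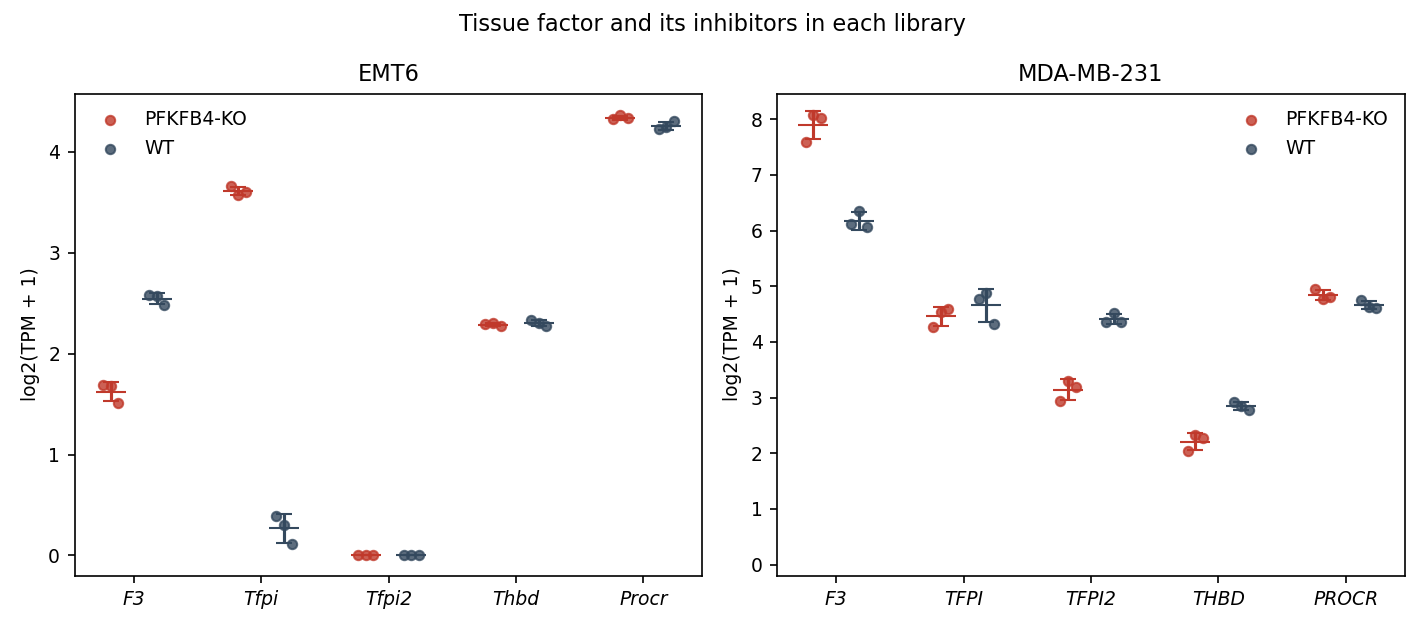
Level of the 5 genes as log2(TPM + 1) in each library of EMT6 and MDA-MB-231, with PFKFB4-KO left of WT, where points are libraries and bars mark the mean with its SD (n = 3) on that scale, and the panels have different axes. F3 is lower in PFKFB4-KO EMT6 (2.09 against 4.83 TPM in WT) and higher in PFKFB4-KO MDA-MB-231 (240.0 against 71.6 TPM in WT), and Tfpi is near 0 in WT EMT6.

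TFPI, the main inhibitor of the tissue factor complex, differed most in EMT6. Tfpi (ENSMUSG00000027082, chromosome 2, 84432855 to 84476775, minus strand) stood at 11.6, 10.9 and 11.1 TPM in PFKFB4-KO EMT6, against 0.312, 0.235 and 0.0789 TPM in WT EMT6. The knockout libraries lay close together, and all 3 wild-type libraries were below the filter of 0.5 TPM that a gene had to reach in at least 3 of 6 libraries, so the gene was tested only through its knockout values. The mean was 11.2 ± 0.4 TPM in PFKFB4-KO and 0.209 ± 0.119 TPM in WT (SD, n = 3 each), a log2 fold change of 3.34 ± 0.09 (SE) on the log2(TPM + 1) scale, or 5.28 with a pseudocount of 0.1, and a 53.6-fold ratio of the means. On the log2(TPM + 1) scale this was the 9th largest positive value among the 13499 tested EMT6 genes, a position that also rests on its entry through the knockout libraries alone. The level exceeded 56.7% of tested genes in PFKFB4-KO against 0.407% in WT.

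In MDA-MB-231, TFPI (ENSG00000003436) stood at 18.2, 22.1 and 23.0 TPM in the PFKFB4-KO libraries, against 26.3, 28.5 and 19.0 TPM in the WT libraries. The groups overlapped, since WT replicate 3 lay below PFKFB4-KO replicates 2 and 3. The means were 21.1 ± 2.56 TPM in PFKFB4-KO and 24.6 ± 4.97 TPM in WT, a log2 fold change of -0.20 ± 0.17 (SE, n = 3 each). TFPI is made as alpha and beta forms that differ in how they attach to the cell, and values per gene do not separate them.

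TFPI2 was measured above 0 only in the human line. In EMT6, Tfpi2 (ENSMUSG00000029664, chromosome 6, 3962595 to 3988919, minus strand) was listed at 0 in all 6 libraries, so it has no fold change there. In MDA-MB-231, TFPI2 (ENSG00000105825) stood at 6.62, 8.78 and 8.17 TPM in the PFKFB4-KO libraries, against 19.6, 21.9 and 19.4 TPM in the WT libraries. The groups were well apart, with the highest knockout library below the lowest wild-type library. The means were 7.86 ± 1.11 TPM in PFKFB4-KO and 20.3 ± 1.37 TPM in WT (SD, n = 3 each), a log2 fold change of -1.27 ± 0.12 (SE). F3 was thus higher, and this inhibitor lower, in the same 3 knockout libraries of MDA-MB-231.

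Thrombomodulin, the thrombin-binding cofactor of the protein C pathway, was lower in the human knockout and close between groups in the mouse line. In MDA-MB-231, THBD (ENSG00000178726) stood at 3.1, 4.0 and 3.81 TPM in the PFKFB4-KO libraries, against 6.53, 6.17 and 5.84 TPM in the WT libraries. These groups did not overlap, and the means were 3.64 ± 0.471 TPM in PFKFB4-KO and 6.18 ± 0.346 TPM in WT, a log2 fold change of -0.63 ± 0.12 (SE, n = 3 each). In EMT6, Thbd (ENSMUSG00000074743, chromosome 2, 148404466 to 148408188, minus strand) stood at 3.89, 3.92 and 3.82 TPM in the PFKFB4-KO libraries, against 4.02, 3.93 and 3.83 TPM in the WT libraries. The EMT6 groups overlapped, with a log2 fold change of -0.01 ± 0.06 (SE). The sign of this value depended on scaling. After median-ratio scaling, in which a library is divided by its typical ratio to the average library, Thbd stood at 4.28, 4.15 and 4.17 scaled TPM in PFKFB4-KO against 3.63, 3.64 and 3.47 scaled TPM in WT, which no longer overlapped, and its log2 fold change was 0.18 ± 0.06 (SE).

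PROCR, the receptor that presents protein C, was close between the groups of both lines in TPM, but in EMT6 this depended on the scaling. In EMT6, Procr (ENSMUSG00000027611, chromosome 2, 155751117 to 155755471, plus strand) stood at 19.0, 19.5 and 19.1 TPM in the PFKFB4-KO libraries, against 17.7, 17.9 and 18.7 TPM in the WT libraries, a log2 fold change of 0.08 ± 0.05 (SE). In MDA-MB-231, PROCR (ENSG00000101000) stood at 29.8, 26.2 and 27.1 TPM in the PFKFB4-KO libraries, against 25.9, 23.8 and 23.3 TPM in the WT libraries, a log2 fold change of 0.18 ± 0.09 (SE). In both lines the knockout libraries all lay above the wild-type libraries, but in MDA-MB-231 the nearest of each group, at 26.2 TPM in PFKFB4-KO and 25.9 TPM in WT, were almost level. With median-ratio scaling Procr in EMT6 stood at 20.9, 20.6 and 20.8 scaled TPM in PFKFB4-KO against 16.0, 16.6 and 17.0 scaled TPM in WT. The EMT6 log2 fold change was then 0.31 ± 0.05 (SE) and the MDA-MB-231 value 0.24 ± 0.1 (SE).

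Of the members that passed the filter on low values, 3 of 4 in EMT6 and 4 of 5 in MDA-MB-231 had groups that did not overlap. Over all tested genes that share was 66.2% in EMT6 and 40.1% in MDA-MB-231, and since the genes were chosen with these contrasts in view nothing is read from the counts. At an adjusted p of 0.05, limma called 7.97% of tested MDA-MB-231 genes higher and 12.1% lower in PFKFB4-KO. These were 1220 and 1845 genes, and leaving out 1 library gave as few as 543 higher (without PFKFB4-KO replicate 2) and 975 lower (without WT replicate 1). Median-ratio scaling moved the median log2 fold change of all tested genes in EMT6 to -0.01, against -0.21 in TPM, and in MDA-MB-231 to 0.01, against -0.04 in TPM. Relative to that shift, the differences of F3 (-0.73 in EMT6 and 1.79 in MDA-MB-231 after scaling), Tfpi (3.47 in EMT6) and TFPI2 (-1.21 in MDA-MB-231) kept their direction.

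**Figure D2:**
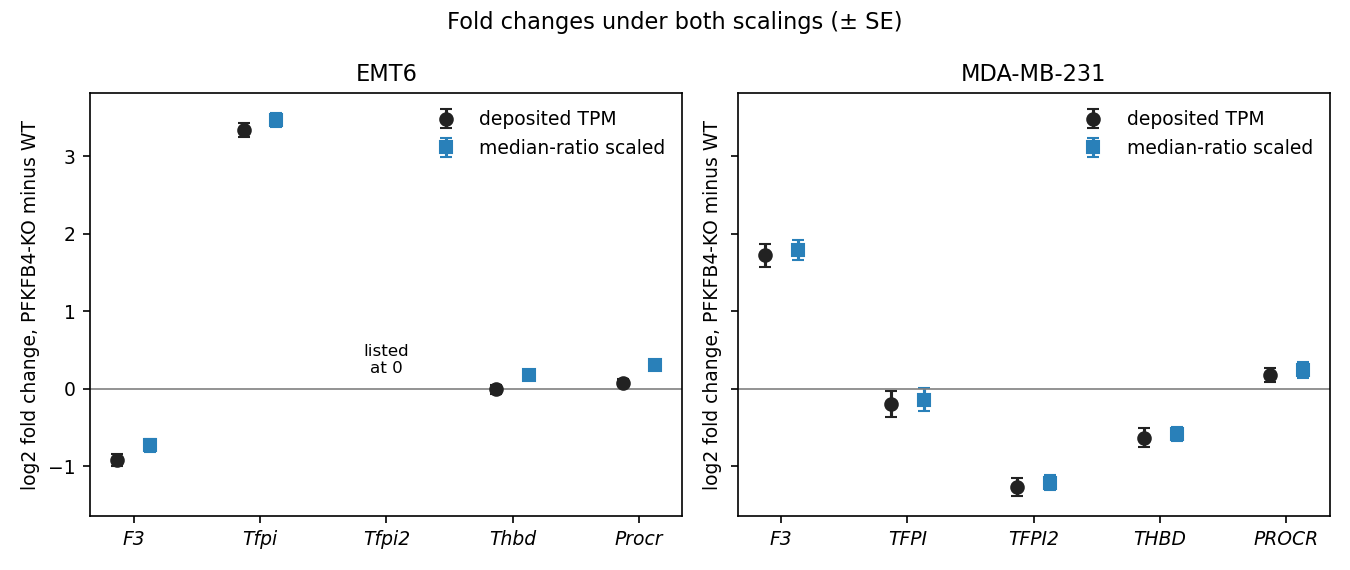
Log2 fold change (PFKFB4-KO minus WT, on log2(TPM + 1)) of each gene with its SE in EMT6 and MDA-MB-231, from the deposited TPM (circles) and after median-ratio scaling (squares), with Tfpi2 of EMT6 not drawn because it is listed at 0. From TPM, F3 is below 0 in EMT6 (-0.92) and above 0 in MDA-MB-231 (1.72), Tfpi is far above 0 in EMT6 (3.34), and TFPI2 and THBD are below 0 in MDA-MB-231 (-1.27 and -0.63).

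The order of the levels within a line also differed between the groups. In PFKFB4-KO EMT6 the order was Procr (19.2 TPM), Tfpi (11.2 TPM), Thbd (3.88 TPM), F3 (2.09 TPM) and Tfpi2 (0), whereas in WT EMT6 it was Procr (18.1 TPM), F3 (4.83 TPM), Thbd (3.92 TPM), Tfpi (0.209 TPM) and Tfpi2 (0). F3 was therefore the lowest detected member in the knockout and the second highest in wild type. In PFKFB4-KO MDA-MB-231 the order was F3 (240.0 TPM), PROCR (27.7 TPM), TFPI (21.1 TPM), TFPI2 (7.86 TPM) and THBD (3.64 TPM), whereas in WT MDA-MB-231 it was F3 (71.6 TPM), TFPI (24.6 TPM), PROCR (24.3 TPM), TFPI2 (20.3 TPM) and THBD (6.18 TPM). The libraries of neighbours in these orders overlapped only for TFPI and PROCR in WT MDA-MB-231.

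Ratios taken within a library do not depend on how libraries are scaled. F3 over TFPI was 0.191, 0.202 and 0.168 in PFKFB4-KO EMT6, against 15.9, 21.0 and 58.1 in WT EMT6, where the spread follows the low Tfpi values. Tissue factor transcript thus exceeded that of its inhibitor in every wild-type EMT6 library and in no knockout library. In MDA-MB-231 the same ratio was 10.6, 12.1 and 11.3 in PFKFB4-KO, against 2.6, 2.84 and 3.45 in WT, a 3.84-fold difference of the geometric means in the other direction. F3 over TFPI2 in MDA-MB-231 was 29.2, 30.5 and 31.7 in PFKFB4-KO, against 3.49, 3.71 and 3.38 in WT, an 8.64-fold difference. This ratio varied less among the knockout libraries than F3 itself did, because PFKFB4-KO replicate 1 was lowest for both genes.

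The ratios to the protein C pathway genes moved with F3. F3 over thrombomodulin was 0.571, 0.559 and 0.486 in PFKFB4-KO EMT6, against 1.24, 1.26 and 1.2 in WT EMT6. In MDA-MB-231 it was 62.2, 66.9 and 68.0 in PFKFB4-KO, against 10.5, 13.1 and 11.2 in WT. The log2 difference was -1.19 in EMT6 and 2.51 in MDA-MB-231, and the groups were apart in both lines. F3 over PROCR was 0.117, 0.113 and 0.0973 in PFKFB4-KO EMT6, against 0.28, 0.275 and 0.245 in WT EMT6. In MDA-MB-231 it was 6.48, 10.2 and 9.57 in PFKFB4-KO, against 2.64, 3.41 and 2.82 in WT. None of the F3 ratios overlapped between the groups of a line. F3 itself did not overlap in either line and is part of every such ratio, so these are not separate results. PROCR over thrombomodulin, the 2 partners of protein C activation, was 9.6, 6.55 and 7.11 in PFKFB4-KO MDA-MB-231, against 3.96, 3.86 and 3.98 in WT MDA-MB-231. In EMT6 that ratio overlapped, at 4.89, 4.97 and 4.99 in PFKFB4-KO against 4.41, 4.56 and 4.9 in WT.

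**Figure D3:**
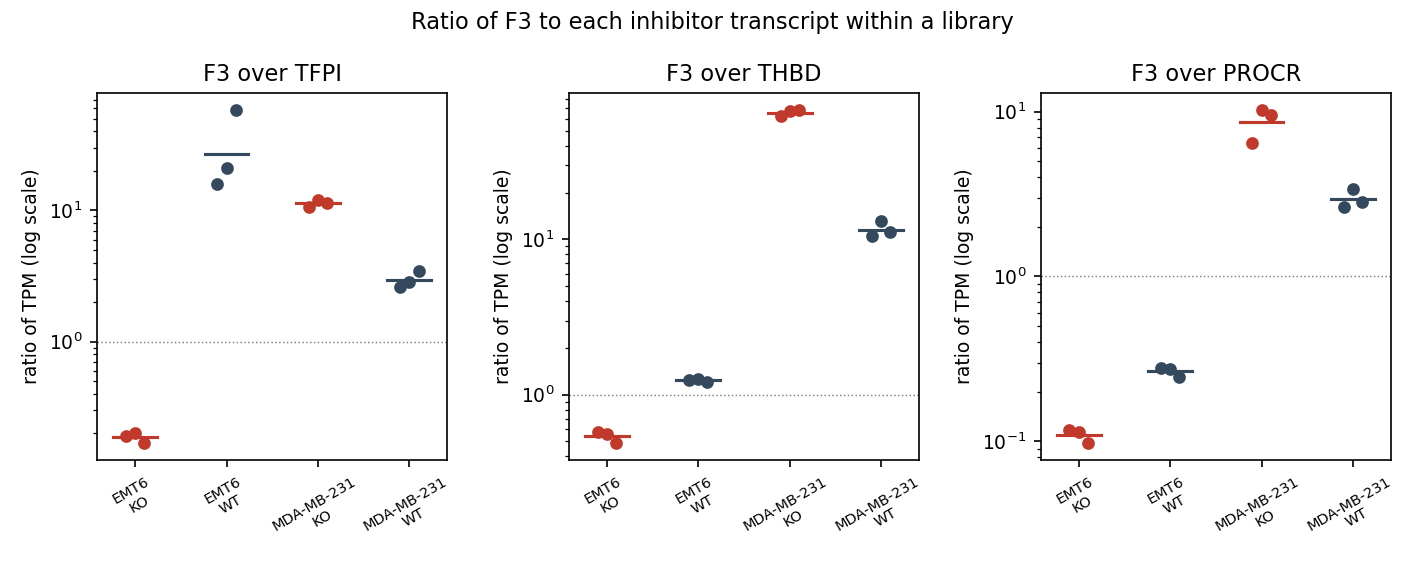
Ratio of F3 TPM to the TPM of TFPI, THBD and PROCR within each library, on log axes that differ between panels, with PFKFB4-KO (KO) left of WT in each line, points for libraries and bars for geometric means. The F3 to TFPI ratio is below 1 in all 3 PFKFB4-KO EMT6 libraries and above 15 in all WT EMT6 libraries, while in MDA-MB-231 all 3 F3 ratios shown are higher in PFKFB4-KO.

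The targeted transcript was checked in EMT6. Pfkfb4 stood at 6.96, 6.87 and 8.24 TPM in the PFKFB4-KO libraries, against 10.2, 10.5 and 10.4 TPM in the WT libraries, lower by limma (-0.45 ± 0.08 SE on the log2 scale, adjusted p = 0.00487), so transcript remained in the libraries labelled as knockout. That fold change is in TPM, where the median of all tested EMT6 genes was -0.21, and it is not given after median-ratio scaling. The human gene was not analysed here. The number of genes reaching 1 TPM was 11871 to 12015 in PFKFB4-KO and 12350 to 12426 in WT EMT6, and 13038 to 13338 in PFKFB4-KO and 13423 to 13593 in WT MDA-MB-231. PFKFB4-KO replicate 1 of MDA-MB-231 had the fewest, and among the human knockout libraries it also had the lowest F3, TFPI, TFPI2 and THBD and the highest PROCR. Whether these move together for a technical reason was not tested. The depth behind each value is unknown, because TPM does not keep it.

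Around the members, 9 lists of related genes holding 108 genes were examined in EMT6, of which 68 could be tested by limma with Benjamini-Hochberg adjustment over all tested genes. In the knockout 8 of them were higher and 42 lower, or 11.8% and 61.8%, with a median log2 fold change of -0.42. Over all 13499 tested genes 14.5% were higher and 42.3% lower, and the median was -0.21. With median-ratio scaling the lists gave 13 higher and 27 lower and a median of -0.18, and all 13488 genes tested under it gave 27.1% higher and 24.7% lower and a median of -0.01. The 4 list genes F5, F2rl1, Col6a3 and Cd248 passed the filter through 1 group only, with every library of the other group below 0.5 TPM. They had to differ and are given below as values with no p. These 4 genes are included in the totals above and in the counts and medians of their lists, which therefore rest in part on them. The human lists were not analysed here.

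The coagulation proteases and cofactors were mostly silent. Of 18 genes 16 stayed below 1 TPM in every library, and F9, Fga, Fgb and Proz were listed at 0. Among the 2 tested members, F5, factor V, the cofactor of factor Xa in making thrombin, averaged 2.08 ± 0.158 TPM in PFKFB4-KO and 0.227 ± 0.0353 TPM in WT (SD, n = 3 each, log2 fold change 1.33). Pros1, protein S, the cofactor of both activated protein C and TFPI, averaged 10.4 ± 0.308 TPM in PFKFB4-KO and 7.06 ± 0.573 TPM in WT (0.50, limma adjusted p = 0.00243).

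In the vitamin K cycle and secretion list, 1 of 7 tested genes rose and 5 fell, with a median of -0.59, against 2 higher and 3 lower with median-ratio scaling (median -0.36). Lman1, a cargo receptor that carries factors V and VIII out of the endoplasmic reticulum, averaged 28.5 ± 1.57 TPM in PFKFB4-KO and 46.9 ± 3.84 TPM in WT (-0.70, limma adjusted p = 0.000932). Nqo1, a quinone reductase, had a log2 fold change of -0.59 (limma adjusted p = 0.00152). Vkorc1, the warfarin target that recycles vitamin K, was called higher by 0.31 (limma adjusted p = 0.0302) but not once the exon length trend was removed (0.06, adjusted p = 0.587). The Vkorc1 call was also lost with no filter, with a replicate block, and without WT replicate 1 or 3 or PFKFB4-KO replicate 1 or 3. The limma adjusted p there ran from 0.0602 to 0.0917, and the other settings kept the call.

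Of the 4 protease-activated receptors, through which clotting proteases signal to cells, 2 were tested (median -1.04). F2rl1, which encodes PAR2, the receptor cleaved by the tissue factor and factor VIIa complex, averaged 0.0567 ± 0.0333 TPM in PFKFB4-KO EMT6 and 2.27 ± 0.106 TPM in WT EMT6 (-1.63 ± 0.06 SE). F2r, which encodes the thrombin receptor PAR1, averaged 9.4 ± 0.867 TPM in PFKFB4-KO and 13.3 ± 0.559 TPM in WT, and fell (-0.46, limma adjusted p = 0.00435). F3 and F2rl1 were thus both lower in the 3 knockout libraries of EMT6.

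Of 10 genes in the list of other anticoagulant proteins, 3 could be tested, among them Lrp1, a clearance receptor rather than an anticoagulant. Anxa5, annexin A5, which covers exposed phosphatidylserine, averaged 504 ± 15.4 TPM in PFKFB4-KO and 377 ± 16.2 TPM in WT (0.42, limma adjusted p = 0.000996). Anxa2, a cell-surface annexin that binds plasminogen and tissue plasminogen activator, was higher by 0.12 (limma adjusted p = 0.0223). This call was lost with no filter, no mean-variance trend or a replicate block, and without WT replicate 2 or PFKFB4-KO replicate 1 or 3. The limma adjusted p there ran from 0.0547 to 0.0867, and the other settings kept the call. Lrp1, the endocytic receptor that clears TFPI, had a log2 fold change of -0.46 (limma adjusted p = 0.00389). This came to 0.05 (limma adjusted p = 0.747) after the trend with exon length had been taken out. The call was also lost with median-ratio scaling (-0.22, limma adjusted p = 0.0558).

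The list of phosphatidylserine exposure and disulfide isomerases, which can switch tissue factor into its active state, had 1 of 12 tested genes higher and 7 lower (median -0.42). Ano6, the scramblase that exposes phosphatidylserine, averaged 10.8 ± 1.23 TPM in PFKFB4-KO and 23.4 ± 1.42 TPM in WT (-1.05 ± 0.09 SE, limma adjusted p = 0.000508). Pdia3, a disulfide isomerase, fell by 0.48 on the log2 scale (limma adjusted p = 0.00036). Plscr1, a phospholipid scramblase, was called higher by 0.18 (limma adjusted p = 0.0258). This call was lost with a replicate block and without any 1 library except PFKFB4-KO replicate 3 (limma adjusted p from 0.0549 to 0.0826). The other settings kept it.

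Heparan sulfate binds TFPI at the cell surface, and of 17 tested genes for its chains and core proteins 1 rose and 11 fell (median -0.43), against 3 higher and 8 lower with median-ratio scaling (median -0.21). Sdc3, syndecan 3, averaged 25.0 TPM in PFKFB4-KO and 19.9 TPM in WT (0.32, limma adjusted p = 0.00488). Glce, the epimerase of the chain, averaged 7.98 TPM in PFKFB4-KO and 16.1 TPM in WT (-0.93, limma adjusted p = 0.000315), and Gpc1, the core protein glypican 1, fell by 0.52 on the log2 scale (limma adjusted p = 0.000508). Among other genes with a Kunitz domain, the fold of TFPI, 4 of 5 tested were called lower and 0 higher by limma (median -0.32), but with median-ratio scaling 2 were lower and 1 higher (median -0.08), and with the length trend removed also 2 and 1 (median -0.01). They included the collagen chains Col6a3, which averaged 0.173 TPM in PFKFB4-KO and 16.0 TPM in WT (-3.86), and Col7a1, which averaged 19.6 TPM in PFKFB4-KO and 43.2 TPM in WT (-1.11, limma adjusted p = 0.000194).

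In a list of 18 genes, mostly transcription factors that act on the F3, THBD or TFPI2 promoters in other cells, all were tested. By limma 1 was higher and 11 lower (median -0.37), against 2 higher and 5 lower with median-ratio scaling (median -0.16). Among the 11 was Nfkbia, which encodes an inhibitor of NF-kappaB and not a transcription factor (-0.29, limma adjusted p = 0.00712, or -0.04 with median-ratio scaling). Nfkb1, a subunit of NF-kappaB, averaged 21.9 TPM in PFKFB4-KO and 38.1 TPM in WT (-0.77, limma adjusted p = 0.000591). Fosl2, a Fos-family subunit of AP-1, averaged 11.5 TPM in PFKFB4-KO and 20.5 TPM in WT (-0.79, limma adjusted p = 0.000536). Junb, another AP-1 subunit, was called higher by 0.18 (limma adjusted p = 0.0215). The Junb call was lost with a replicate block and without PFKFB4-KO replicate 1 or 2 or WT replicate 1 or 2 (limma adjusted p from 0.0573 to 0.0747). The other settings kept it. The F3 sequence printed above holds AP-1 and kB-like letters, and binding was not measured. Of the 3 C-type lectin relatives of thrombomodulin 2 were tested. Cd248, endosialin, averaged 0.076 TPM in PFKFB4-KO and 0.98 TPM in WT (-0.88). Cd93, the tested protein-coding gene nearest to Thbd, was not called (0.05, limma adjusted p = 0.556).

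**Figure D4:**
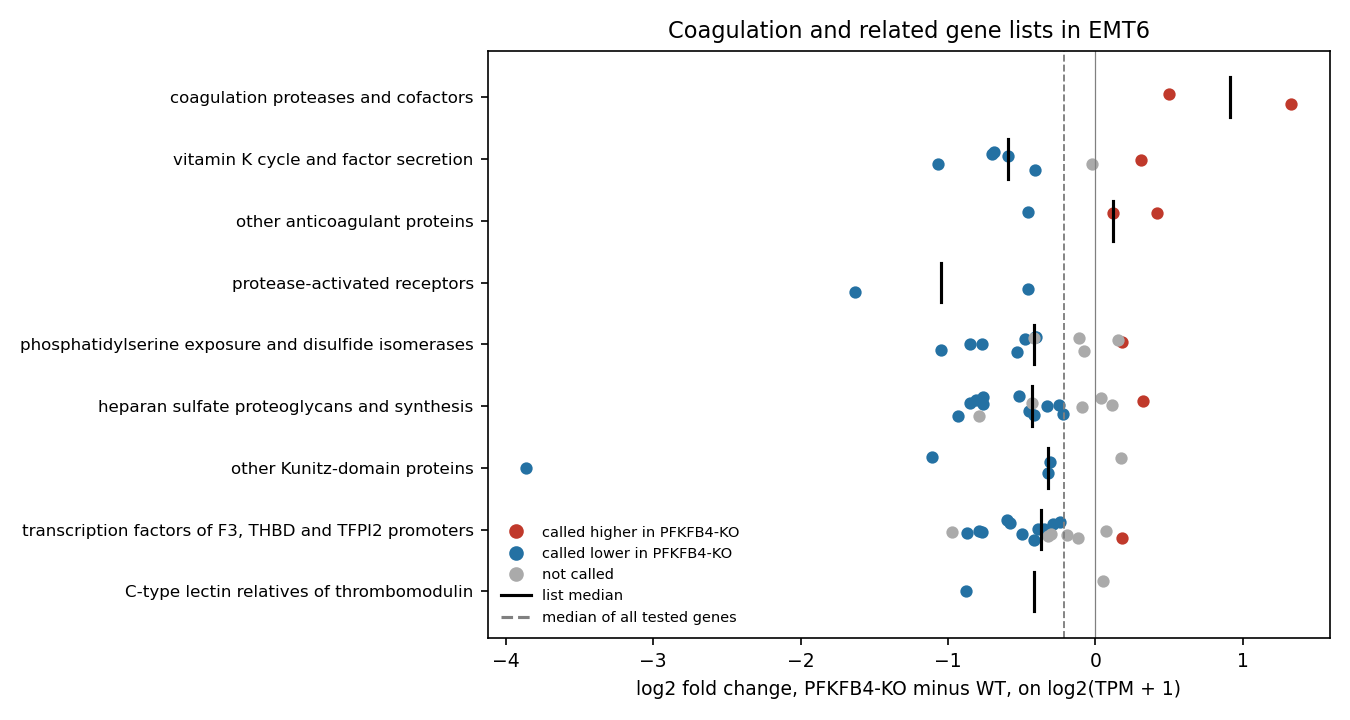
Log2 fold change (PFKFB4-KO minus WT, on log2(TPM + 1)) of each tested gene of the 9 related lists in EMT6, coloured red (higher) or blue (lower) where called by limma at an adjusted p of 0.05 and grey where not, a bar at the median of each list and a dashed line at the median of all tested genes (-0.21). The medians of 7 of the lists lie below that line. Those of the coagulation proteases and cofactors (0.91, 2 tested genes) and of the other anticoagulant proteins (0.12, 3 tested genes) lie above it. F5, in the former list, passed the filter through PFKFB4-KO only, and medians of so few genes say little of a list.

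Markers of other cells were read beside Tfpi, whose product is abundant in endothelium. Of 12 endothelial markers 10 stayed below 1 TPM in every EMT6 library, Kdr, Cldn5, Erg and Emcn were listed at 0, and the summed level was 2.0 to 5.08 TPM in PFKFB4-KO and 3.37 to 4.66 TPM in WT. The 1 tested endothelial marker was not called (-0.18). Of 12 leukocyte markers 10 stayed below 1 TPM, with Adgre1 and Tyrobp listed at 0, and 2 of 3 tested rose. Their sum was 58.2 to 64.1 TPM in PFKFB4-KO and 25.0 to 29.6 TPM in WT, carried by the lysosomal gene Cd68 (56.1 TPM in PFKFB4-KO and 23.9 TPM in WT) and by Coro1a, an actin-binding protein gene (5.14 TPM in PFKFB4-KO and 2.17 TPM in WT, log2 fold change 0.95), and their part in the Tfpi values was not tested. Of 6 platelet markers 3 were tested and 0 called by limma, and the sum was 5.92 to 6.71 TPM in PFKFB4-KO and 5.76 to 6.88 TPM in WT. Over all tested EMT6 genes 14.5% were called higher and 42.3% lower in TPM.

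Of the markers for the line itself, some were high in both groups and others near 0. Their calls stand beside 14.5% higher and 42.3% lower over all tested EMT6 genes. Of 8 epithelial markers 4 were tested, 1 higher and 3 lower, with a sum of 542 to 568 TPM in PFKFB4-KO and 530 to 584 TPM in WT. Krt8 carried most of that sum, while Epcam was at most 0.288 TPM and Cldn7 was listed at 0. The 1 called higher was Krt8 (0.15, limma adjusted p = 0.0302). This call was lost with no filter, no mean-variance trend or a replicate block, and without WT replicate 1 or 2 or PFKFB4-KO replicate 1 or 3. The limma adjusted p there ran from 0.0547 to 0.0953, and the other settings kept the call. Krt14, a basal keratin, averaged 3.94 TPM in PFKFB4-KO and 36.5 TPM in WT (-2.92). Krt19, a simple-epithelial keratin, averaged 0.0177 TPM in PFKFB4-KO and 1.95 TPM in WT (-1.53). Krt19 passed the filter through WT only, so it had to differ, and it is among the 3 counted as lower. Of 8 mesenchymal markers 7 were tested, 1 higher and 5 lower, with a sum of 3910 to 4060 TPM in PFKFB4-KO and 3730 to 4000 TPM in WT, mainly from Vim. Col1a1, a fibrillar collagen chain, fell by 1.92 on the log2 scale, and Sparc, a matrix glycoprotein gene, fell by 0.58. Human markers were not analysed here.

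The genes beside F3 and Tfpi on the chromosome were compared, with neighbours named after their values were seen. Within 1000 kb of mouse F3, 10 tested protein-coding genes were found, of which 0 were called higher and 7 lower by limma. Of all tested EMT6 genes, protein-coding or not, 14.5% were higher and 42.3% lower. These are calls in TPM. With median-ratio scaling 27.1% of all tested genes were higher and 24.7% lower, and the neighbours were not counted again under it. Abcd3, a peroxisomal transporter gene 23.7 kb away, averaged 7.31 TPM in PFKFB4-KO EMT6 and 9.35 TPM in WT EMT6 (-0.32, limma adjusted p = 0.0129). Slc44a3, 191 kb away, averaged 0.976 ± 0.329 TPM in PFKFB4-KO and 4.77 ± 0.412 TPM in WT (-1.56 ± 0.14 SE, limma adjusted p = 0.000538). Arhgap29, 217 kb away, averaged 0.00384 TPM in PFKFB4-KO and 4.15 ± 0.379 TPM in WT (-2.36 ± 0.08 SE), a larger fold change than the -0.92 of F3. Arhgap29 passed the filter through WT only, so it had to differ, and it is among the 7 counted as lower. Cnn3, calponin 3, 265 kb away, was not called (-0.03, limma adjusted p = 0.563).

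Within 1000 kb of mouse Tfpi, 15 tested protein-coding genes were found, 4 higher and 6 lower. Their log2 fold changes ran from -0.70 to 1.10, so none reached the 3.34 of Tfpi. Tfpi was chosen with its values known and was tested only through its knockout libraries, so nothing is read from that contrast. Ctnnd1, p120 catenin, 123 kb away, averaged 24.5 TPM in PFKFB4-KO and 40.6 TPM in WT (-0.70, limma adjusted p = 0.00226), and Selenoh, 192 kb away, averaged 123 TPM in PFKFB4-KO and 56.7 TPM in WT (1.10, limma adjusted p = 0.000212). Beside Tfpi2, listed at 0, the G-protein subunit gene Gng11 15.0 kb away averaged 42.4 ± 1.81 TPM in PFKFB4-KO and 27.0 ± 1.27 TPM in WT (0.63, limma adjusted p = 0.00053). Beside Procr, Edem2 21.6 kb away was not called (0.02, limma adjusted p = 0.862). No exon of a mouse member overlapped an exon of another annotated gene. Upstream of F3, the predicted gene Gm43823 on the other strand has an exon in the window shown and stood at 0.0108 to 0.013 TPM in PFKFB4-KO and 0.0264 to 0.0718 TPM in WT.

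**Figure D5:**
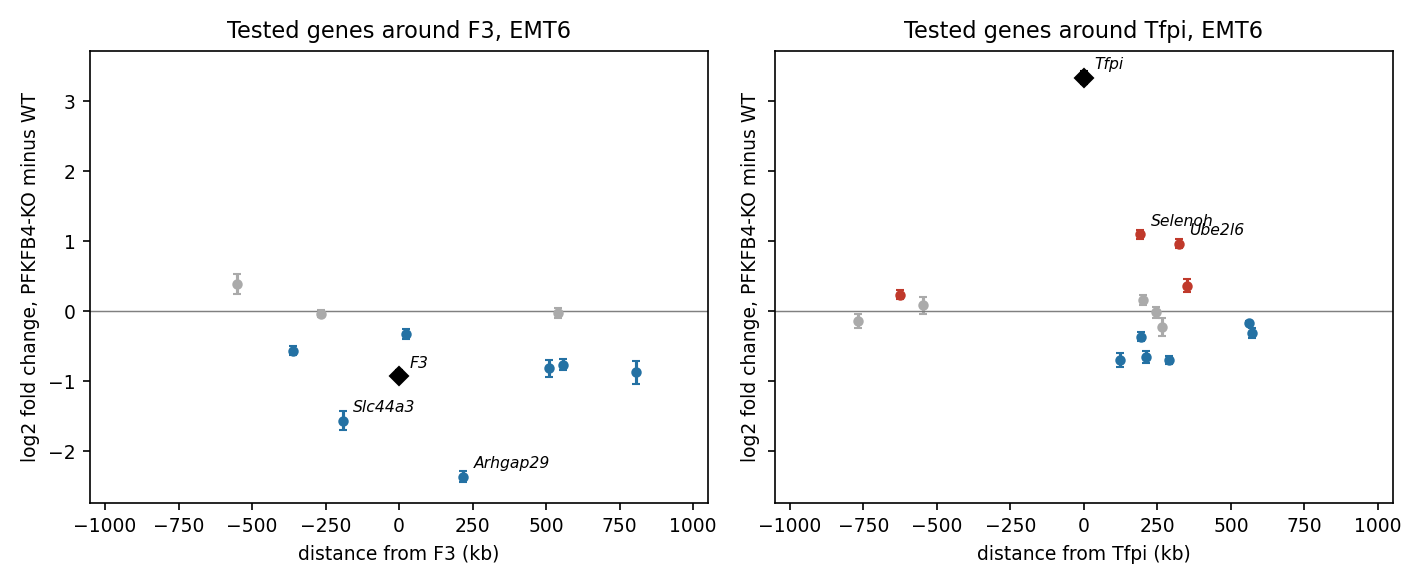
Log2 fold change (PFKFB4-KO minus WT, on log2(TPM + 1)) of tested protein-coding genes within 1000 kb of F3 and of Tfpi in EMT6, against the distance from the member in kb. Bars mark the SE, red and blue mark genes called higher and lower by limma, grey those not called, and a diamond the member. Around F3 the values run from -2.36 to 0.39 and 7 of 10 neighbours are called lower in TPM (42.3% of all tested genes). The -2.36 is Arhgap29, which passed the filter through WT only, so it had to differ, and it is among the 7. Tfpi at 3.34, chosen with its values known and tested only through PFKFB4-KO, stands above neighbours of -0.70 to 1.10.

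The genes with the most similar pattern over the 6 EMT6 libraries were found by the root-mean-square difference of centred log2(TPM + 1) among 12227 named genes. For F3 these were Prps1l3 (0.0299), Wls (0.0307) and Prickle1 (0.0315). Wls, the carrier that brings Wnt proteins to the cell surface, stood at 22.7, 22.6 and 20.8 TPM in PFKFB4-KO, against 44.5, 42.7 and 42.4 TPM in WT. For Tfpi the nearest were Irf7 (0.0745), Ccl7 (0.158) and Cntn1 (0.165). Irf7, which encodes an interferon regulatory factor, stood at 32.1, 35.4 and 33.9 TPM in PFKFB4-KO, against 2.64, 2.36 and 2.15 TPM in WT. For Procr they were Pdlim1 (0.0118), Tpm3-rs7 (0.0136) and Tagln2 (0.014). Prps1l3 and Tpm3-rs7 are close copies of other genes and their values are uncertain. With 2 groups of libraries, likeness mainly reflects a similar fold change.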

How the data were processed

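Single-end poly(A) RNA-seq of EMT6 and MDA-MB-231 was analysed from the TPM values the authors deposited, 1 table per line. The submitters' processing notes name TopHat2 2.1.1, CASAVA 1.8.2, Subread 1.6.4 and featureCounts, and the builds mm10 and GRCh38.p7. Strand and other settings were not given in the sources used here. Each deposited library sums to 1000000 TPM, so depth is unknown and no count test or counting interval was possible. The other 3 columns of each table carry the wild-type name, and the columns coded A7 (EMT6) and G2 (MDA-MB-231), which no label explains, were taken as knockout by elimination.

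Mouse symbols and positions came from GENCODE M21 on GRCm38, with 54097 of 54331 identifiers matched. Human identifiers other than the 5 members were left unnamed. Upstream sequences came from the RefSeq promoter table. A gene was tested in a line if 3 or more of the 6 libraries reached 0.5 TPM. limma 3.58.1 (R 4.3.3) with a mean-variance trend was fitted within each line on log2(TPM + 1) over all such genes, with Benjamini-Hochberg adjustment and calls at 0.05. The scripts were tested on simulated data. The fit used no replicate block. Members and gene lists were chosen with earlier results of these data known. The text names the 5 members, up to 2 called genes per direction and list with the smallest adjusted p, and the 3 nearest profiles of each EMT6 member whose groups did not overlap. Others were chosen after their values were seen. Alternatives were another scaling, pseudocount, filter, trend setting and length correction, a replicate block, and leaving out each library. No pair of libraries of a line held more than 0.00694% identical values. Tables and figures used Python 3.11.15, pandas 2.3.3, numpy 2.4.6 and matplotlib 3.10.9.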

Additional observations from a re-analysis of the deposited data

Results flagged for a closer look

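F3 and its ratios differed in opposite directions in the 2 lines. The ratios all contain F3, so they repeat its difference in part and are not separate results. The log2 fold change of F3 was -0.92 in EMT6, where all 3 PFKFB4-KO libraries were below all WT libraries, and 1.72 in MDA-MB-231, where all 3 were above. In EMT6 the log2 difference was -7.17 for F3 over TFPI, -1.19 for F3 over THBD and -1.29 for F3 over PROCR, whereas MDA-MB-231 gave 1.94 for F3 over TFPI, 2.51 for F3 over THBD and 1.55 for F3 over PROCR. That difference between the lines was not tested, because the genes were chosen with it in view and the tables were normalized separately. Line and species cannot be told apart.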

How the results depend on the processing

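Of 112 member fold changes recomputed over 9 results, 103 moved by less than the spread between replicates, and 9 moved further. The sign changed only for Thbd in EMT6, which was not a called difference. With median-ratio scaling the EMT6 values were -0.73 for F3, 3.47 for Tfpi, 0.18 for Thbd and 0.31 for Procr. With a pseudocount of 0.1 they were -1.17 for F3 and 5.28 for Tfpi in EMT6 and -0.76 for THBD in MDA-MB-231. With the length trend removed they were 3.63 for Tfpi and 0.17 for Thbd, and Lrp1 changed sign to 0.05. Leaving out each library gave -0.95 to -0.86 for F3, 3.26 to 3.40 for Tfpi, -0.03 to 0.00 for Thbd and 0.06 to 0.10 for Procr in EMT6, and 1.64 to 1.87 for F3, -0.37 to -0.09 for TFPI, -1.35 to -1.17 for TFPI2, -0.69 to -0.55 for THBD and 0.13 to 0.22 for PROCR in MDA-MB-231. Genes called in EMT6 were 3660 higher and 3327 lower with median-ratio scaling and 3099 higher and 3677 lower with the length trend removed, against 1954 higher and 5705 lower. List genes called in EMT6 were 13 higher and 27 lower with median-ratio scaling, against 8 and 42, and ranged from 4 to 7 higher and from 37 to 42 lower with a library left out, the lowest 4 without PFKFB4-KO replicate 1 and 5 without WT replicate 1 or 2. In MDA-MB-231 1220 genes were called higher and 1845 lower, and 543 to 1107 higher and 975 to 1597 lower with a library left out. The higher count fell most without PFKFB4-KO replicate 2 (543) or 3 (578) or WT replicate 1 (584) or 3 (759), and the lower count without WT replicate 1 (975) or 3 (1209) or PFKFB4-KO replicate 2 (1008). The cause was not tested. Same-numbered libraries did not deviate together (correlations from -0.0175 to 0.0728 in EMT6, and for MDA-MB-231 from -0.127 to 0.114), so the numbers were not taken to pair them. With the replicate block 4 list genes were higher, and 534 genes were higher and 1030 lower in MDA-MB-231. Over 30 named list genes, 356 of 389 values kept their call and direction, 32 lost the call and 1 reversed. These genes were named for small adjusted p-values in the same data. F5, F2rl1, Col6a3, Cd248 and Krt19 among them passed the filter through 1 group only and had to differ. The kept share is therefore no measure of how firm calls are in general. Depth is unknown and limits what can be said of values below 1 TPM, such as Tfpi in WT EMT6.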
